A study of Mus musculus with 18 samples.

Results

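The mature products of the miR-199 and miR-214 genes were followed in mouse knee cartilage, taken from the femoral condyles, once the anterior cruciate ligament (ACL) had been torn. Members were chosen by name, and they were 6 of the 1412 mature microRNAs (miRNAs) in the count table, namely mmu-miR-199a-5p, mmu-miR-199a-3p, mmu-miR-199b-5p, mmu-miR-199b-3p, mmu-miR-214-5p and mmu-miR-214-3p. The species prefix is left out below. All 6 were among the 428 miRNAs that passed the filter on low counts. miR-199a-3p and miR-199b-3p held the same count in every library and are treated as 1 measurement, miR-199a/b-3p, which leaves 5 measurements.

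All groups were male C57Bl/6J mice (C57bl6 in the labels) of 12 weeks. The injured mice had isoflurane anaesthesia for the loading and were given the analgesic buprenorphine, and whether the naïve mice were is not given in the sources used here. Small RNA was sequenced in 18 libraries. The injured groups came from the right knee, loaded until the ligament ruptured, and were taken at day 1 (n = 3) or day 7 (n = 3). The contralateral groups (n = 3 at day 1 and n = 3 at day 7) were the unloaded left knees of animals injured on the right. Naïve mice (n = 6) received no load and are labelled day 7, so day 1 has no naïve group of its own. Every library was a pool. The series description gives 4 mice per sample, whereas the study's schematic gives 2 mice at day 1 and 4 at day 7, when part of the cartilage had been lost. The 6 naïve libraries came from 6 naïve mice, with left and right knees in separate pools, so they share animals and are not 6 independent pools. Injured and contralateral pools can share animals too. The p-values below therefore measure the spread between pools, not between animals.

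MiRNAs are short RNAs that guide the silencing machinery to messenger RNAs, mainly through bases 2 to 8, the seed. Each hairpin precursor can yield a 5p and a 3p arm, and the arm that is kept in the silencing complex is called the guide. In mice, one miR-199a hairpin and the miR-214 hairpin are processed from the same long non-coding transcript, Dnm3os, which is active in mesenchymal tissues and is needed for normal skeletal growth. miR-199a-3p is known for repressing mTOR, miR-214-3p for targeting the osteoblast factor ATF4, and both families are raised in fibrotic tissue.

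The mature sequences are shown because they decide which counts can be told apart. They are from RefSeq (GRCm38.p6), 5′ to 3′, with the seed in capitals.
miR-199a-5p: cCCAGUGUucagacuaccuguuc
miR-199a-3p: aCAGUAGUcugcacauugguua
miR-199b-3p: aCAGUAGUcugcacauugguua
miR-214-5p: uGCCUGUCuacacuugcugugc
miR-214-3p: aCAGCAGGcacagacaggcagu

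Among 1679 mature names in the RefSeq table, which did not include miR-199b-5p, no other had the seed of miR-199a-5p or miR-214-5p. The study states that miR-199b-5p has the same seed as miR-199a-5p, and the 5p side of the Mir199b hairpin carries that seed. The seed of the miR-199 3p arm was shared by miR-199a-3p and miR-199b-3p alone, whose sequences are identical over all 22 bases. miR-214-3p shared its seed with miR-761, which was absent from the count table.
miR-761: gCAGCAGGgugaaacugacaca

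Mir199a-2 (chromosome 1, 162217814 to 162217923, plus strand) and Mir214 (chromosome 1, 162223368 to 162223477, plus strand) both lie in an exon of Dnm3os and opposite an intron of Dnm3, a dynamin gene, with 5444 bases between them. Mir199b (chromosome 2, 32318460 to 32318569, plus strand) lies opposite an intron of Dnm1, and Mir199a-1 (chromosome 9, 21496495 to 21496564, minus strand) opposite an intron of Dnm2. Reads of miR-199a-5p can come from Mir199a-1 or Mir199a-2, and reads of the 3p measurement from any of the 3 miR-199 hairpins. miR-214 has a single hairpin. The only further miRNA within 10000 bases of a member was miR-3154, beside Mir199b, with 4 counts in all.

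The 5p side of the Mir199b hairpin matches miR-199a-5p at all but 1 of 23 bases. The substitution is C10U, counted from 1 at the 5′ end, and lies outside the seed. The differing base is in capitals.
miR-199a-5p: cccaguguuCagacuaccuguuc
Mir199b hairpin, 5p side: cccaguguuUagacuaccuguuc

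Library totals ranged from 758388 to 4088852 counts. Values are counts per 1000000 counts of a library (CPM) after TMM scaling, a share of a library rather than an absolute amount, and in pooled tissue a change in the number of cells of a type cannot be told apart from a change in RNA per cell. The mature forms are 22 or 23 bases long, so that levels of different members need no length scaling. Whether different sequences were captured and counted equally well was not tested, so levels of different miRNAs are compared as counts only. The tissue is labelled as chondrocytes. The 4 chondrocyte markers (miR-140 and miR-455, both arms) were present in all groups, with a summed level of 7899 ± 1551 CPM (SD, n = 6) in naïve cartilage, but the 4 skeletal muscle markers summed to 137532 ± 50264 CPM (SD, n = 6) and the 2 endothelial markers to 52172 ± 13026 CPM (SD, n = 6).

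A single library, day 7 contralateral replicate 1, stood apart within the miR-199 family. It held 7318 counts of miR-199b-5p and 4747 of miR-199a-5p, so that miR-199b-5p made up 60.7% of the 5p sum (95% Wilson interval 59.8% to 61.5%, counting error only). In the other 17 libraries this share lay between 2.85% and 8.97%. Results that rest on this library are given with and without it.

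Together the 5 measurements made up 3.07% ± 0.23 (SD, n = 6) of all counts in naïve cartilage. The measurements count the miR-199 3p arm once, whereas library totals hold both of its identical entries, so these shares are somewhat low. After injury, at day 7, they made up 6.30% ± 0.53 (SD, n = 3). The naïve range of 2.65% to 3.28% did not overlap the day 7 injured range of 5.69% to 6.66%. In the other groups the mean share was 2.81% ± 0.30 (SD, n = 3) for day 1 injured, 2.86% ± 0.25 (SD, n = 3) for day 1 contralateral and 2.75% ± 0.58 (SD, n = 3) for day 7 contralateral.

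The first comparison set day 7 injured against naïve cartilage, to ask which members differ a week after the injury. With limma-voom, 4 of the 5 measurements were higher at an adjusted p under 0.05, namely miR-199a-5p, miR-199a/b-3p, miR-214-5p and miR-214-3p. Across all 428 miRNAs tested, 18.2% were called, 14.5% as higher. miR-199b-5p did not pass, although its libraries, like those of the 4 called measurements, lay wholly above the naïve libraries, as did those of 15.4% of all miRNAs tested. The median log2 fold change of the 5 measurements was 1.19, against -0.0028 over all miRNAs tested.

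miR-199a/b-3p, a repressor of mTOR, was the most abundant member. It lay at 13009, 20807 and 26304 CPM (lowest, median and highest of 6) in naïve libraries and at 41502, 45785 and 46785 CPM in the 3 day 7 injured libraries. The groups did not overlap, and the 3p arm ranked 7th in every day 7 injured library, against 10th or 11th in naïve libraries. It rose 2.27-fold (log2 fold change 1.19 ± 0.26 SE, adjusted p = 0.00201).

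miR-199a-5p, known for targeting caveolin and the hypoxia factor HIF1A, lay at 6438, 8045 and 8534 CPM (lowest, median and highest of 6) in naïve libraries. In day 7 injured libraries it reached 14848, 16963 and 21065 CPM. All 3 values were above every other library of the series, and its rank was 13 to 16, against 22 to 30 in naïve cartilage. The rise was 2.29-fold (log2 1.19 ± 0.24 SE, adjusted p = 0.000726).

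miR-214-5p, the less studied arm of its hairpin, had naïve values of 397, 542 and 881 CPM (lowest, median and highest of 6) and day 7 injured values of 1617, 1819 and 1650.3 CPM. No injured value came near the naïve range. Its rise was the largest of the 5 fitted changes (log2 fold change 1.58 ± 0.25 SE, adjusted p = 6.58e-05), although its 95% interval (log2 1.07 to 2.10) covered the fitted changes of the other called members.

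miR-214-3p, the arm usually described as the guide, was the least abundant member, at 145, 171 and 322 CPM (lowest, median and highest of 6) in naïve libraries and 444, 428 and 396 CPM in day 7 injured libraries. The groups were separate, with naïve replicate 5 nearest to the injured libraries. The fold change was 2.27 (log2 1.19 ± 0.24 SE, adjusted p = 0.00091).

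miR-199b-5p, known for targeting the Notch effector HES1, was measured at 248, 521 and 634 CPM (lowest, median and highest of 6) in naïve libraries and at 904, 930.0 and 669.5 CPM in day 7 injured libraries. The lowest injured value was only just above the highest naïve one. The fitted change was log2 0.83 ± 0.57 SE (adjusted p = 0.397). Its error was larger than that of any other member, and the day 7 contralateral library described above enters the shared estimate of the spread. Leaving out any single library, that one included, did not bring a call (log2 0.68 to 1.00, limma-voom adjusted p at least 0.0978).

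**Figure D1:**
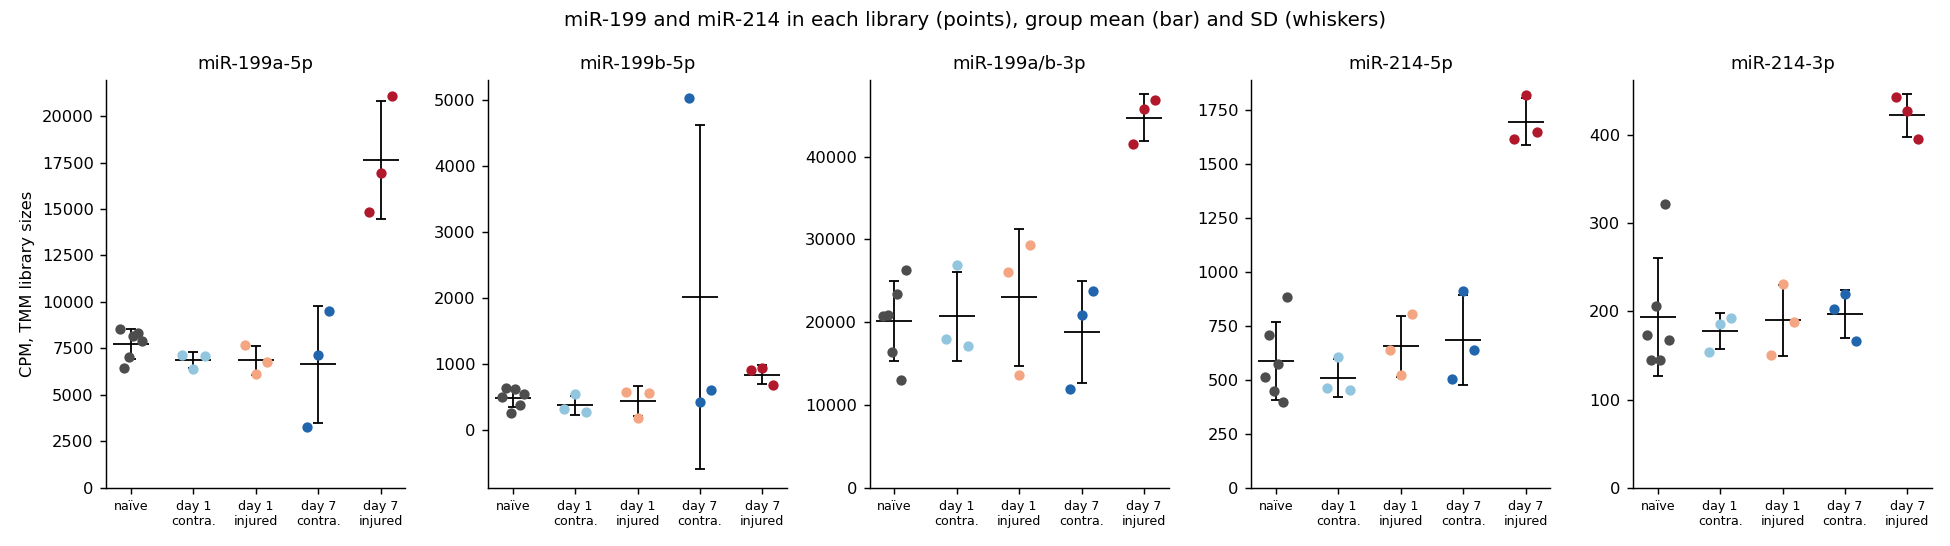
CPM of the 5 measurements (y axis, linear, own scale per panel) in each of the 18 libraries (points), with the group mean (bar) and SD (whiskers). The 3 day 7 injured libraries lie above all others for every measurement but miR-199b-5p, where day 7 contralateral replicate 1 reaches 5026 CPM and its group's SD exceeds the mean.

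Day 7 injured and contralateral knees were then compared, which sets each injured joint against uninjured joints of injured animals. The same 4 measurements were called as higher, against 14.7% of all miRNAs tested, or 13.8% counted as higher. They also lay wholly above the contralateral libraries, as did 17.5% of all miRNAs tested. The day 7 contralateral values of miR-199a-5p were 3260.0, 7148 and 9505 CPM, and the rise was 2.87-fold (log2 1.52 ± 0.27 SE, adjusted p = 0.00041). Without replicate 1 it was log2 1.18 (adjusted p = 0.000248).

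The 3p arm stood at 11949, 20821 and 23766 CPM in day 7 contralateral libraries, and all 3 were below the lowest injured library. It rose 2.45-fold (log2 1.29 ± 0.30 SE, adjusted p = 0.00407), or by log2 1.08 without replicate 1 (adjusted p = 0.0102). miR-214-5p, at 503, 912 and 637 CPM in contralateral cartilage, rose 2.53-fold (log2 1.34 ± 0.28 SE, adjusted p = 0.00183). miR-214-3p, at 203, 219.9 and 167 CPM, rose 2.16-fold (log2 1.11 ± 0.28 SE, adjusted p = 0.00723). Neither miR-214 arm lost its call without replicate 1, with log2 fold changes of 1.21 (adjusted p = 0.00522) and 1.20 (adjusted p = 0.0102). With library totals in place of TMM, miR-214-3p no longer passed (log2 1.09, adjusted p = 0.0745).

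miR-199b-5p was the exception here. It lay at 5026, 414 and 595 CPM in day 7 contralateral libraries, so that replicate 1 was the highest value of the series and the other 2 were below all injured values. The fitted difference was log2 -0.31 ± 0.64 SE (adjusted p = 0.825), and it turned to 0.80 without replicate 1 (adjusted p = 0.333). No direction can be given for this member in this comparison.

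Replicate 1 differed in the split between the 5p arms, but not in that alone. Its 3p value of 11949 CPM was the lowest of the series, at rank 19 against 10 to 12 in the other control and day 1 libraries, and its ratios of 5p sum to 3p (log2 -0.53) and of miR-214-3p to miR-199a-5p (0.0625) were the highest of the 18 libraries. The members together made up 2.16% of its counts, the lowest share. The sum of miR-199a-5p and miR-199b-5p was 8286 CPM in that library, between the 7563 and 10100.2 CPM of the other day 7 contralateral libraries and inside the naïve range of 7072 to 9032 CPM. A fit on the summed 5p counts, chosen after the data were seen, gave a rise of log2 1.21 ± 0.16 SE over naïve (adjusted p = 9.27e-06) and a 2.17-fold rise over day 7 contralateral cartilage (SE 0.18 on the log2 scale, adjusted p = 0.00014). The standard error was smaller than that of miR-199a-5p by itself in both comparisons.

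Other miRNAs that differ from a close relative by 1 base were examined in the same way, also after the values were seen. Of 15 such pairs, each member with over 3000 counts over all libraries, the ratio in day 7 contralateral replicate 1 lay outside the range of the other 17 libraries in 6. The 6 include miR-199a-5p and miR-199b-5p, the pair by which this library had been singled out, so that pair adds nothing to the count. Some pairs share a member, such as let-7a-5p, and are not separate observations. The other libraries were outside in 0 to 4 pairs. The gap for miR-199a-5p and miR-199b-5p was 3.97 on the log2 scale, that for miR-27a-3p and miR-27b-3p 1.36 and that for miR-19a-3p and miR-19b-3p 1.00. The part of these exchanges in the miR-199b-5p result was not tested.

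**Figure D2:**
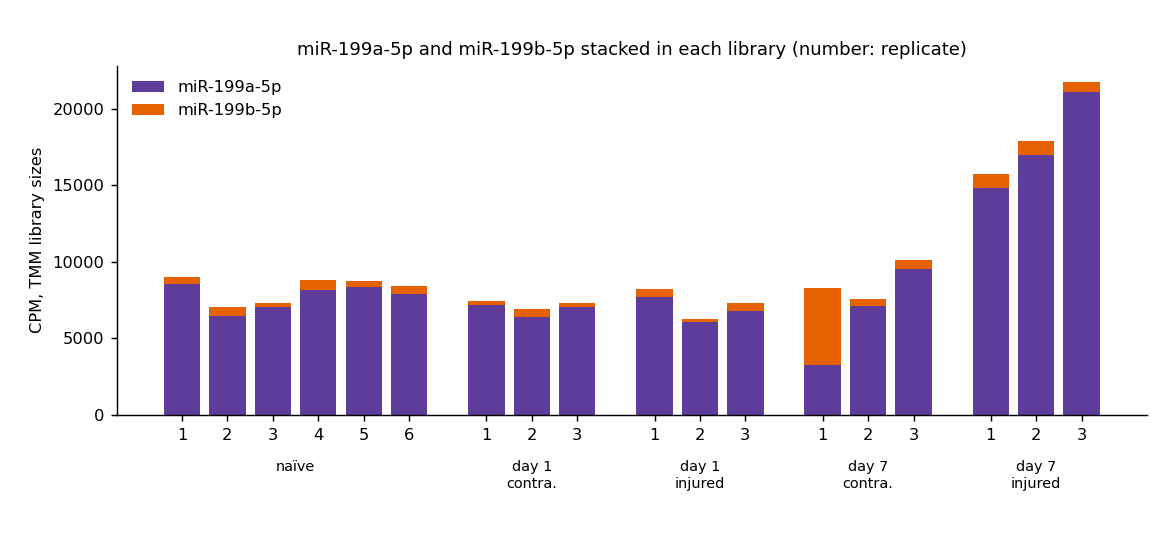
miR-199a-5p (purple) and miR-199b-5p (orange) stacked in CPM (y axis, from 0) for each library, grouped by treatment, with the replicate number on the x axis. Replicate 1 of day 7 contralateral has 60.7% of its 5p sum as miR-199b-5p, while its total of 8286 CPM is close to that of the other control libraries.

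At day 1, injured cartilage was compared with naïve and with day 1 contralateral cartilage to ask whether the members respond early. No member was called in either comparison, and none of the 428 miRNAs was, by limma-voom (0% in both, with 1.87% at an unadjusted p under 0.05 in each), edgeR or DESeq2. miR-199a-5p lay at 7675, 6101 and 6784 CPM in day 1 injured libraries and at 7158, 6378 and 7079 CPM in their contralateral group. The 2 groups overlapped, and the fitted difference was log2 -0.0038 ± 0.28 SE (95% interval -0.59 to 0.58).

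The 3p arm stood at 26068, 13622 and 29279 CPM in day 1 injured and at 17997, 26888 and 17162 CPM in day 1 contralateral libraries. Values were spread more widely than for the 5p arm, and the interval of the difference was log2 -0.53 to 0.76. miR-214-5p was measured at 636, 524 and 804 CPM in injured and 463, 608 and 455 CPM in contralateral libraries (log2 0.36, interval -0.26 to 0.97). For miR-214-3p the injured values were 150.4, 231 and 188 CPM and the contralateral values 154, 186 and 192 CPM (log2 0.08, interval -0.50 to 0.66). miR-199b-5p lay at 578, 179 and 556 CPM in injured and at 308, 535 and 260.0 CPM in contralateral libraries, with an interval of log2 -1.26 to 1.54. All of these groups overlapped, where 8.64% of all miRNAs had groups that did not. Apart from that of miR-199b-5p, no interval against day 1 contralateral cartilage reached log2 1, which is a doubling.

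Against naïve cartilage, the day 1 injured differences ran from log2 -0.26 for miR-199b-5p to 0.19 for miR-214-5p, with a median of 0.01 over the 5 measurements and 0.07 over all miRNAs tested. Every member overlapped the naïve libraries, and 1.4% of all miRNAs did not. The upper limit for miR-199a-5p was log2 0.34, and that for miR-214-3p was 0.52. The signs of these differences changed with the scaling for miR-199a/b-3p, miR-214-5p and miR-214-3p.

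Injured cartilage at day 7 and day 1 was compared next. The same 4 measurements were called as higher at day 7, against 15.7% of all miRNAs tested, or 12.1% counted as higher. The day 7 values of all 5 lay above the day 1 values, as did those of 18.7% of all miRNAs tested. miR-199a-5p rose 2.57-fold (log2 1.36 ± 0.27 SE, adjusted p = 0.00108), miR-214-5p 2.62-fold (log2 1.39 ± 0.29 SE, adjusted p = 0.00139) and miR-214-3p 2.25-fold (log2 1.17 ± 0.28 SE, adjusted p = 0.00465). The 3p arm of miR-199 rose 2.03-fold (log2 1.02 ± 0.30 SE, adjusted p = 0.0237), and this call rested on day 1 injured replicate 2, the lowest of its group at 13622 CPM, without which the value was log2 0.81 (adjusted p = 0.0696). miR-199b-5p did not pass (log2 1.08 ± 0.66 SE, adjusted p = 0.317), although it did without day 7 contralateral replicate 1, a library of neither group that enters through the shared fit (log2 1.21, adjusted p = 0.0469).

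Whether the injury effect itself was larger at day 7 than at day 1 was tested as a difference of differences, each against the contralateral knee. miR-199a-5p passed (log2 1.52 ± 0.39 SE, adjusted p = 0.0189), so 1 of 5 measurements was called, where 6.78% of all miRNAs tested were. It did so without day 7 contralateral replicate 1 (log2 1.21, adjusted p = 0.00748) and as the 5p sum (log2 1.07 ± 0.26 SE, adjusted p = 0.0141), but not when only the 4 groups of injured mice were fitted (log2 1.46, adjusted p = 0.0737). The estimates for the other members called at day 7 were lower and did not pass. They were log2 1.18 ± 0.43 SE for miR-199a/b-3p (adjusted p = 0.136), 0.98 ± 0.41 SE for miR-214-5p (adjusted p = 0.191) and 1.03 ± 0.39 SE for miR-214-3p (adjusted p = 0.160). All 3 of these intervals lay above 0, and miR-214-3p passed without naïve replicate 5 (log2 1.11, adjusted p = 0.0341). Without day 7 contralateral replicate 1 the 3 estimates were log2 1.00 (adjusted p = 0.148), 0.89 (adjusted p = 0.233) and 1.15 (adjusted p = 0.121), in the same order. miR-199b-5p was at log2 -0.45 ± 0.93 SE (adjusted p = 0.909), or 0.69 without that library (adjusted p = 0.659).

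The control groups were compared with each other to see whether the members moved in uninjured joints. No member and no miRNA was called between day 1 contralateral and naïve cartilage, between day 7 contralateral and naïve cartilage, or between the contralateral groups of the 2 days (0% in each by limma-voom, with 0.935%, 5.37% and 5.84% of miRNAs at an unadjusted p under 0.05; edgeR also called 0, and DESeq2 called 0, 1 and 2). By DESeq2, miR-199b-5p was called in day 7 contralateral cartilage, over naïve (log2 2.10, adjusted p = 0.037) and over day 1 contralateral (log2 2.57, adjusted p = 0.0134). By limma-voom these differences were log2 1.14 ± 0.56 SE (adjusted p = 0.675) and log2 1.54 ± 0.65 SE (adjusted p = 0.701), and without replicate 1 they were log2 0.06 and 0.52 (adjusted p = 1.00 and 0.991). Of the other members, the widest difference from naïve was log2 -0.33 ± 0.24 SE, for miR-199a-5p in day 7 contralateral cartilage, and it turned to 0.064 without replicate 1.

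**Figure D3:**
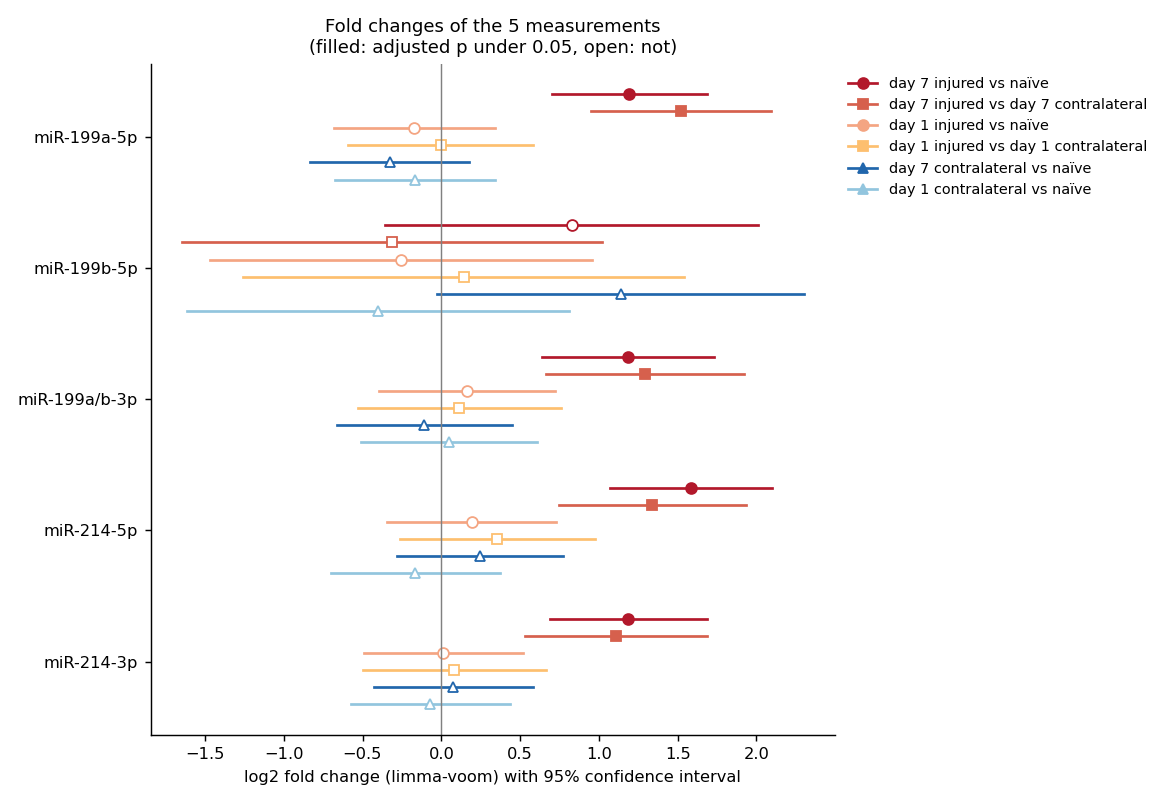
Log2 fold changes (x axis, limma-voom) of the 5 measurements (y axis) in 6 comparisons, with 95% confidence intervals. Filled symbols have an adjusted p under 0.05. Filled symbols appear at day 7 injured against naïve or contralateral cartilage, between log2 1.11 and 1.58, and the intervals of miR-199b-5p are the widest.

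Day 7 injured had the highest mean for miR-199a-5p, miR-199a/b-3p, miR-214-5p and miR-214-3p, and its libraries did not overlap those of the next group. Below it the order differed between members, and each pair of neighbouring groups overlapped for these 4 measurements. For miR-214-3p the 4 lower means lay between 177 and 197 CPM, and for miR-199a/b-3p between 18845 and 22989.9 CPM. miR-199b-5p had its highest mean in day 7 contralateral cartilage, at 2012 ± 2612 CPM (SD, n = 3), which is the weight of 1 library.

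Ratios within a library do not depend on how libraries are scaled, and 4 of them were used to ask whether members kept their proportions in day 7 injured cartilage. Groups of 3 and 6 libraries can reach an exact permutation p of 0.0238, whereas 3 against 3 cannot go below 0.10, so other groups were not tested. These permutations treat the naïve libraries, which share mice, as independent. The 5p sum of miR-199 stood to the 3p arm as 1 to 2.40 in naïve cartilage (log2 ratio -1.26 ± 0.38, SD, n = 6). In day 7 injured cartilage it stood as 1 to 2.44 (-1.29 ± 0.16, SD, n = 3). The difference was log2 -0.03 (two-sided exact permutation p = 0.952, adjusted over the 4 ratios p = 0.952).

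miR-214-5p exceeded miR-214-3p in every library, by 1.23- to 5.25-fold. Its counts were 3.04 times those of the 3p arm in naïve cartilage (log2 1.61 ± 0.80, SD, n = 6). In injured cartilage at day 7 they were 4.01 times as many (SD 0.12 on the log2 scale, n = 3), a difference of log2 0.40 that lay within the naïve spread (two-sided exact permutation p = 0.476, adjusted p = 0.952). The arm usually named as the guide was thus the rarer in these counts.

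The ratio of miR-199b-5p to miR-199a-5p in naïve cartilage was log2 -4.06 ± 0.53 (SD, n = 6), and in injured cartilage at day 7 it was -4.40 ± 0.50 (SD, n = 3) (exact permutation p = 0.357, adjusted p = 0.952). That of miR-214-3p to miR-199a-5p, which can share the Dnm3os transcript, was log2 -5.37 ± 0.41 (SD, n = 6) and -5.37 ± 0.34 (SD, n = 3), or about 1 read of miR-214-3p for 41.5 and 41.3 reads of miR-199a-5p (difference log2 0.0057, exact permutation p = 0.952, adjusted p = 0.952). None of the 4 ratios differed beyond the spread between libraries, which does not show that they were equal.

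**Figure D4:**
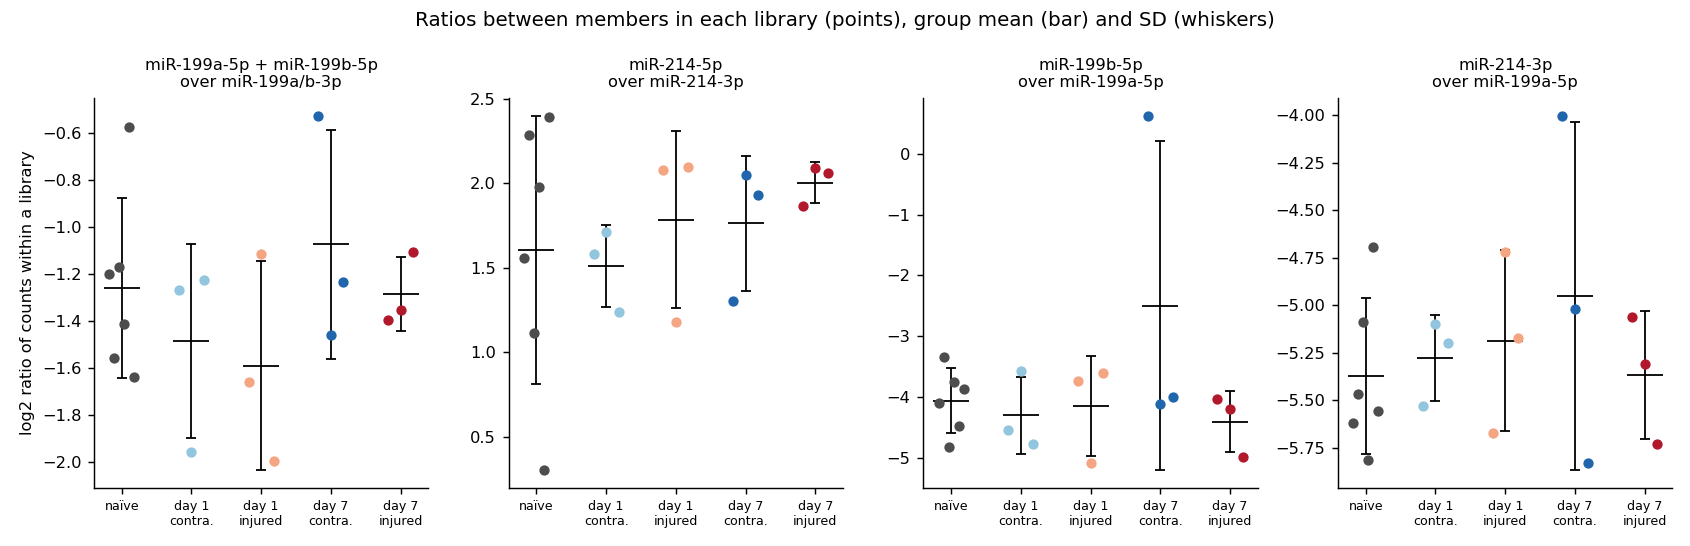
Log2 ratios of counts within each library (y axis) for 4 pairs of members, with each library as a point, the group mean as a bar and the SD as whiskers. Day 7 injured libraries lie within the naïve range or overlap it in every panel, and day 7 contralateral replicate 1 is alone above 0 in the ratio of miR-199b-5p to miR-199a-5p, at log2 0.62.

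The arm ratios moved with the depth of the library inside groups. Over 18 libraries, deviations from the group means of the miR-199 ratio of 5p to 3p fell with log10 of the library total (Pearson's r = -0.69, permutation p = 0.00395 within groups, adjusted over 4 ratios p = 0.0079; Spearman's rho = -0.66, permutation p = 0.00776, adjusted p = 0.0155). Those of the miR-214 ratio rose (r = 0.73, permutation p = 7e-05, adjusted p = 0.00028; rho = 0.67, permutation p = 0.0022, adjusted p = 0.0088). Without the 2 libraries whose log10 totals, taken as deviations from group means, lay farthest from the median deviation, r was -0.80 and 0.76. The relation was also present in the naïve libraries by themselves (r = -0.91 and 0.93, n = 6) and without day 7 contralateral replicate 1 (r = -0.63 and 0.70, n = 17).

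The ratio of miR-214-3p to miR-199a-5p fell with the total by Pearson's r (-0.59, permutation p = 0.0242, adjusted p = 0.0323) but not past the threshold by Spearman's rho (-0.49, permutation p = 0.0868, adjusted p = 0.116). That of the miR-199 5p arms showed no such relation (r = -0.12, permutation p = 0.75, adjusted p = 0.75; rho = 0.07, permutation p = 0.814, adjusted p = 0.814). Day 7 injured libraries included the shallowest of the series, replicate 1 with 758388 counts. With log10 of the total as a covariate, an alternative chosen after the data were seen, the 4 members called over naïve cartilage had log2 fold changes of 1.16 for miR-199a-5p, 1.11 for miR-199a/b-3p, 1.51 for miR-214-5p and 1.22 for miR-214-3p, with adjusted p between 7.5e-06 and 0.000427.

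**Figure D5:**
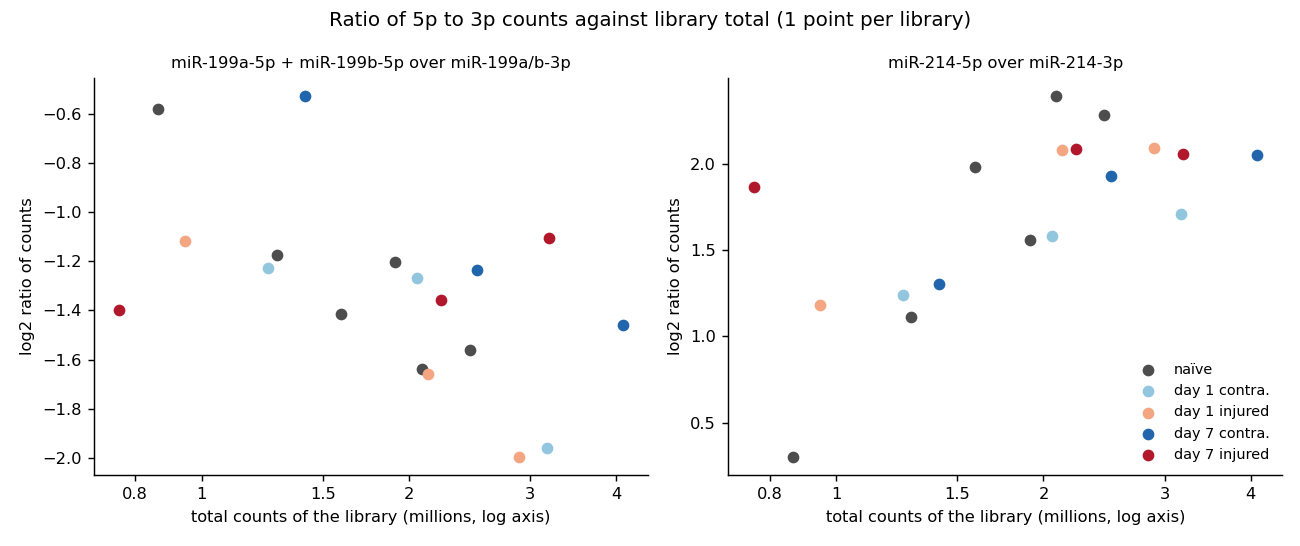
Log2 ratio of 5p to 3p counts (y axis) against the total counts of the library (x axis, log scale), 1 point per library, coloured by group, for miR-199 (left) and miR-214 (right). Deeper libraries have relatively fewer miR-199 5p counts and more miR-214-5p counts, with r of -0.69 and 0.73 on deviations from group means.

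As a description across the 18 libraries, which share group structure and depth, log2 CPM of miR-199a/b-3p followed miR-214-5p most closely among the members (Pearson's r = 0.89, and 0.80 on deviations from group means). miR-199a-5p and miR-199a/b-3p had r = 0.82 (0.51 on deviations). The 2 arms of miR-214 had r = 0.65 overall but -0.45 on deviations, and miR-199a-5p and miR-214-3p had r = 0.67 overall and -0.14 on deviations. miR-199b-5p stood apart from miR-199a-5p (r = -0.11) until day 7 contralateral replicate 1 was left out (r = 0.62). Without that library, the r of the pairs named before were 0.91, 0.78, 0.65 and 0.78, in the same order. The r on deviations include that library and were not computed without it.

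Outside the family, the 5 miRNAs whose log2 CPM was most like miR-199a-5p over the 18 libraries were miR-335-3p (r = 0.96), miR-411-3p (0.94), miR-495-3p (0.94), miR-335-5p (0.93) and miR-379-3p (0.93). miR-335 comes from the imprinted Mest gene, and the other 3 from the imprinted Dlk1-Dio3 region. On deviations from group means, which leave out the difference between groups, these r were between 0.70 and 0.92. Without day 7 contralateral replicate 1, the r over libraries were between 0.91 and 0.95, and those on deviations were not computed. The 5 most like miR-214-3p were miR-409-3p (0.88), miR-370-3p (0.88), miR-541-5p (0.86), let-7c-1-3p (0.85) and miR-127-3p (0.85). On deviations from group means, with that library included, these r were between 0.32 and 0.65. For miR-199b-5p the 3 most alike were miR-362-5p (0.84), miR-26a-2-3p (0.84) and miR-142a-3p (0.81), which fell to 0.60, 0.56 and 0.70 without day 7 contralateral replicate 1.

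Of the 8 fibroblast and matrix miRNAs listed beside the family (both arms of miR-21a, miR-29a-3p, miR-29b-3p, miR-29c-3p, miR-31-5p, miR-143-3p and miR-145a-5p), 3 were called as higher and none as lower in day 7 injured than in naïve cartilage. Over all miRNAs tested, 14.5% were called as higher. The list was chosen with earlier results of these data known. The 3 were miR-21a-5p, the abundant arm of a miRNA raised in many fibrotic tissues (3.61-fold, log2 1.85 ± 0.29 SE, adjusted p = 8.23e-05), miR-21a-3p (log2 1.67 ± 0.48 SE, adjusted p = 0.0167) and miR-31-5p (4.15-fold, log2 2.05 ± 0.26 SE, adjusted p = 6.98e-06). The libraries of miR-21a-3p overlapped at low levels, 4.12 to 14.5 CPM in injured and 1.23 to 8.20 CPM in naïve cartilage. The miR-29 members, which repress collagen genes, were between log2 -0.21 and 0.13, and the median of the list was log2 0.16. Against day 7 contralateral cartilage, 3 of the list were also called as higher, and its median was log2 -0.15.

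Markers of other cell types were set beside the day 7 result. None of the 4 chondrocyte, 4 skeletal muscle or 2 endothelial markers was called between day 7 injured and naïve cartilage. The erythroid markers summed to between 5986 and 7928 CPM in naïve and between 3081 and 4150.3 CPM in day 7 injured libraries. One of 4 was called as lower, miR-486a-5p (log2 -1.22 ± 0.24 SE, adjusted p = 0.000673). It made up most of that sum, with means of 4979 CPM in naïve and 2150 CPM in injured libraries. The libraries of miR-451a, miR-144-5p and miR-144-3p overlapped, with log2 fold changes of -0.25, -0.46 and -0.0073. One of the 5 leukocyte markers was called, miR-150-5p, also lower (log2 -1.54 ± 0.36 SE, adjusted p = 0.00317), while the list's sum lay between 2723 and 6591 CPM in naïve and between 4391 and 4962 CPM in injured libraries. Against day 7 contralateral cartilage, the muscle markers summed to between 69609.5 and 133903 CPM in injured and between 136656 and 249838 CPM in contralateral libraries. These sums did not overlap, and 0 of 4 markers were called. Most of the sum was miR-1a-3p, with means of 99380 CPM in injured and 172881 CPM in contralateral libraries. Its libraries did not overlap, whereas those of miR-133a-3p, miR-133b-3p and miR-206-3p did. No marker was at 0 in every library. The part of these shifts in the members' rises was not tested. With the muscle markers left out of the scaling, 4 members were still called over naïve cartilage.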

How the data were processed

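Small RNA of 18 pooled cartilage libraries had been prepared with the NEBNext Small RNA kit. According to the study's methods and the submitters' processing notes, the authors trimmed reads (Trim Galore 0.6.6, FastQC 0.11.9), aligned them to miRBase mature sequences with bowtie 1.3.0 and counted them with SAMtools 1.12, in an nf-core pipeline set to GRCm38. The deposited values are raw counts per mature miRNA. How reads that match several sequences were counted is not given in the sources used here. Among the miRNAs tested, 15 fell into 7 sets with the same count in every library.

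Groups came from the treatment labels. Replicate numbers follow accession order and only name libraries. No label tells which pools came from the same animals, and every library was treated as independent. This differs from the study's fit, in which limma's duplicateCorrelation took shared mouse pools into account. Table rows were matched to samples by library number, since the prefix differs, with no further identifier to check it. No 2 replicates looked like 1 library deposited again (27 pairs, chi-square per degree of freedom at least 49.1).

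Counts were analysed in R 4.3.3. filterByExpr of edgeR 4.0.16 (minimum count 10, minimum total 15) kept 428 miRNAs, TMM scaled the libraries, and limma 3.58.1 (voom, lmFit, eBayes) estimated 1 mean for each group from all 18 libraries. The 9 contrasts were each adjusted by Benjamini-Hochberg over all miRNAs tested, two-sided, with a threshold of 0.05. Spread in CPM is the SD over libraries. For likeness, log2 CPM was taken with 2 as the prior count. Ratios added 0.5 to each count and were tested by exact permutation (Python 3.11.15, SciPy 1.17.1). Relations to depth used 100000 permutations within groups. Library totals were 758388 to 4088852 counts. Intervals of shares cover counting error only, as PCR copies are not independent molecules. The fit was tested on simulated counts. Alternatives were DESeq2 1.42.0 (size factors or Wald test), library totals, scaling without muscle markers, other filters, edgeR's quasi-likelihood test, quality weights, 1 column of each identical set, only the groups compared, each library left out, and for ratios a pseudocount of 5 or summed counts. Sequences and positions came from RefSeq tables of GRCm38.p6, and host genes from the GENCODE annotation of that build. Figures were drawn with matplotlib 3.10.9.

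The named miRNAs were all members, miRNAs sharing a seed or lying within 10000 bases, the 5, 5 and 3 miRNAs most like miR-199a-5p, miR-214-3p and miR-199b-5p, and the called fibroblast and matrix miRNAs. The members and lists were chosen with earlier results of these data known.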

Additional observations from a re-analysis of the deposited data

Results flagged for a closer look

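In naïve cartilage, miR-214-3p was at 322 CPM in replicate 5, and the next library was at 206 CPM. The gap was 0.653 of the whole range of the 6 libraries, above Dixon's critical value of 0.625. Chance flags about 1 in 20 groups, and 9 sets of naïve values were checked. Replicate 5 was also the naïve library with the fewest counts (864123), the lowest miR-214-5p (397 CPM) and the lowest 3p value of miR-199 (13009 CPM). Without it, miR-214-3p was log2 1.11 for the injury effect at day 7 minus that at day 1, with an adjusted p of 0.0341.

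The injury effect on miR-199a-5p differed between the days, by log2 1.52 (limma-voom adjusted p = 0.0189), with 3 of 3 day 7 injured libraries above all contralateral libraries and overlapping values at day 1. Its adjusted p ran from 0.00244 to 0.0737 over the 30 alternatives, and it was called in 29 of them. The 30 include the fit on the 5p sum (limma-voom adjusted p = 0.0141), a different measurement chosen after the data were seen.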

How the results depend on the processing

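In day 7 injured against naïve cartilage, the 4 called measurements stayed called under every alternative run. Log2 fold changes ran from 1.07 to 1.37 for miR-199a-5p, 1.05 to 1.31 for miR-199a/b-3p, 1.44 to 1.75 for miR-214-5p and 1.05 to 1.38 for miR-214-3p. Against day 7 contralateral cartilage, 4 were called except with library totals (3). miR-199b-5p passed as well over naïve cartilage in 2 alternatives. These were quality weights (log2 0.71, adjusted p = 0.0485) and only the groups compared (0.83, adjusted p = 0.031). What depth limits was not compared between members, and with pooled mice the spread between animals is unknown. No paired analysis was possible because the labels carry no pair or pool numbers, so p-values do not allow for mice shared between libraries, as the study's own fit did. The causes of the changes below were not tested.

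The count of members called was 1 by DESeq2 in day 7 contralateral against naïve and in day 7 against day 1 contralateral cartilage. For the injury effect at day 7 minus that at day 1, the count was 2 with library totals, with quality weights and with log10 of the total, and 0 with only the groups compared. miR-199a/b-3p was the added call with library totals (log2 1.28, adjusted p = 0.0142) and log10 of the total (1.29, adjusted p = 0.0106), and miR-214-3p with quality weights (1.23, adjusted p = 0.0177). The ratio of miR-214-3p to miR-199a-5p turned to log2 -0.0039 with a pseudocount of 5.

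The values that changed sign were all of members that had not been called. With quality weights, miR-199b-5p was at log2 0.53 in day 7 injured against contralateral cartilage. In day 1 injured against naïve cartilage, library totals gave -0.032 for miR-199a/b-3p, -0.0069 for miR-214-5p and -0.18 for miR-214-3p. There miR-214-3p was at -0.029 with DESeq2 size factors, -0.073 without muscle markers, -0.025 with 10 counts in every library, -0.025 by edgeR, -0.067 by DESeq2, -0.0073 with quality weights, -0.032 with 1 column of identical sets and -0.0012 with only the groups compared. In day 1 injured against contralateral cartilage, miR-199a-5p was at 0.024 with DESeq2 size factors, 0.029 with every miRNA with a count, 0.020 by DESeq2, 0.058 with quality weights, 0.0048 with 1 column of identical sets, 0.0019 with only the groups compared, 0.025 with log10 of the total and 0.051 as the 5p sum. There library totals gave -1.28e-05 for miR-199a/b-3p and -0.038 for miR-214-3p, and quality weights -0.050 for miR-214-3p. In day 7 contralateral against naïve cartilage, quality weights gave 0.033 for miR-199a-5p and 0.031 for miR-199a/b-3p, the 5p sum was at 0.094, and library totals gave -0.041 for miR-214-3p. In day 1 contralateral against naïve cartilage, miR-199a/b-3p was at -0.021 with DESeq2 size factors, -0.032 with library totals, -0.016 without muscle markers, -0.033 by DESeq2, -0.12 with quality weights, -0.0050 with 1 column of identical sets, -0.0064 with only the groups compared and -0.089 with log10 of the total, and miR-214-3p at 0.042 with quality weights. In day 7 against day 1 contralateral cartilage, quality weights gave 0.20 for miR-199a-5p and 0.15 for miR-199a/b-3p, and the 5p sum was at 0.34.

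Each library was left out in turn. Called members over naïve or contralateral cartilage stayed at 4. Against day 1 injured cartilage the count ran from 3 (without day 1 injured replicate 2) to 5 (without day 7 contralateral replicate 1), and for the difference between days from 1 to 2 (without naïve replicate 5). miR-199b-5p ran from log2 -0.98 to 0.80 in day 7 injured against contralateral cartilage, from -0.65 to 0.21 in day 1 injured against naïve, from -0.19 to 0.67 in day 1 injured against contralateral and from -1.10 to 0.69 in the difference between days. In day 1 injured against naïve cartilage, miR-199a/b-3p ran from -0.13 to 0.41, miR-214-5p from -0.045 to 0.30 and miR-214-3p from -0.22 to 0.090. Against day 1 contralateral cartilage, day 1 injured miR-199a-5p ran from -0.13 to 0.056, miR-199a/b-3p from -0.11 to 0.42 and miR-214-3p from -0.087 to 0.19. In day 7 contralateral against naïve cartilage, miR-199a-5p ran from -0.61 to 0.064, miR-199a/b-3p from -0.27 to 0.14, miR-214-5p from -0.0014 to 0.41 and miR-214-3p from -0.013 to 0.23. In day 1 contralateral against naïve cartilage, miR-199a/b-3p ran from -0.22 to 0.092 and miR-214-3p from -0.21 to 0.038. Between contralateral days, miR-199a-5p ran from -0.41 to 0.29 and miR-199a/b-3p from -0.28 to 0.15. The miR-199 arm ratio ran from -0.12 to 0.11, and that of miR-214-3p to miR-199a-5p from -0.15 to 0.19.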
